A study of Homo sapiens with 15 samples.

Results

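NEDD8 and SUMO2 are small proteins that are attached to other proteins, and 8 genes of the machinery that carries them were examined: NEDD8, NAE1, UBA3, UBE2M, UBE2F, SAE1, UBA2 and SUMO2. They are 8 of the 59428 genes of the IMR90 count table and of the 59412 genes of the Huh7 count table. The 8 were picked by symbol with their levels in all 15 libraries already known, so every value of theirs is a description and none is tested. The partner genes around them are tested where a p-value is given, and they too were listed with earlier results of these data known.

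The 15 RNA-seq libraries fall into 5 groups of 3. IMR90, a human lung fibroblast line, was senescent through HRAS G12V, an activated form of the HRAS oncogene, in all 3 of its groups. Of these, 2 groups carried a short hairpin RNA against THBD (thrombomodulin, a thrombin receptor of the cell surface) and are numbered 1 and 2 in the sample titles, and the third carried a non-targeting hairpin. Huh7, a hepatocyte-derived carcinoma line, was senescent through palbociclib, an inhibitor of cyclin-dependent kinases, in both of its groups. One group carried a hairpin against THBD and the other a non-targeting hairpin. The labels do not state if the THBD hairpin of Huh7 was one of those used in IMR90. The question the design puts is what THBD knockdown changes in senescent cells. The labels give neither the meaning of the set numbers nor whether the replicates were separate cultures, so each p-value reflects the spread among these libraries alone, which may be technical. Cells that were not senescent are not among the libraries analysed here. The growth protocol mentions replicative senescence through extended passaging too, and no label states if this holds for the IMR90 libraries used.

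Both modifiers travel along a relay of enzymes like that of ubiquitin. NEDD8 is activated by the E1 heterodimer of NAE1 and UBA3, handed to the E2 enzyme UBE2M or UBE2F, and attached mainly to cullins, which switches on the cullin-RING ubiquitin ligases; the COP9 signalosome takes it off again. SUMO proteins are activated by the heterodimer of SAE1 and UBA2 and attached with the help of ligases such as the PIAS proteins, mostly to nuclear proteins. SENP proteases remove SUMO.

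Windows of 250 bases that end at the RefSeq start of the gene (GRCh38.p14) are printed for 3 genes: NEDD8 and UBA2, whose RNA was lower in set 2 and in Huh7 shTHBD, and SUMO2, whose RNA was higher in both. Capitals mark each CCGGAAG, the core of sites for ETS-family factors, and each CCAAT, the box bound by NF-Y, on either strand. The matches did not overlap each other. The NEDD8 window is chr14:24232368-24232617 on the minus strand, the UBA2 window chr19:34428131-34428380 on the plus strand, and the SUMO2 window chr17:75182960-75183209 on the minus strand.
NEDD8: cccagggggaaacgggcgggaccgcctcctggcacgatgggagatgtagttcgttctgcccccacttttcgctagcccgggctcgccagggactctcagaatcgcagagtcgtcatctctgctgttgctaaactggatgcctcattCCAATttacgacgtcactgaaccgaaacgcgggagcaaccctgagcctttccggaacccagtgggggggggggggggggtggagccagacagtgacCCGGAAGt
UBA2: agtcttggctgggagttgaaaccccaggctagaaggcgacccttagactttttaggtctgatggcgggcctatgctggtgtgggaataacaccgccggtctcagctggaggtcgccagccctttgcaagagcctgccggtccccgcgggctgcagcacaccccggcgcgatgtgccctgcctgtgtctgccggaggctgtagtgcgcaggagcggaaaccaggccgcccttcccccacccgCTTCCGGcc
SUMO2: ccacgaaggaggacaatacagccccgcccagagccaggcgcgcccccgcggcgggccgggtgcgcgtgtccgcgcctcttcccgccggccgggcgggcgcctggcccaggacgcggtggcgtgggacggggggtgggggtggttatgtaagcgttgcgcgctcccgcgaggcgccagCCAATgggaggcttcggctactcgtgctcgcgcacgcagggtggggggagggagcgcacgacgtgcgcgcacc
In the NEDD8 window CCAAT lies 104 bases and CCGGAAG 8 bases before the start. The UBA2 window holds CCGGAAG on the reverse strand, 9 bases before the RefSeq start. UBA2 as counted starts at 34428352, which is within this window and upstream of the match. The SUMO2 window holds CCAAT 73 bases before the start. Of the 8 genes, 7 have an entry in the promoter table, all but SAE1. CCGGAAG was found in 2 of these 7 windows (NEDD8 and UBA2), against 8.52% of 35116 promoters. CCAAT was found in 4 of the 7 (NEDD8, NAE1, UBE2F and SUMO2), against 32.0% of all promoters. TATAAA, the TATA box, was in none of the 7, against 10.7% of all promoters. NAE1, whose RNA was also lower in set 2 and in Huh7 shTHBD (log2 fold changes −0.75 and −0.25), had CCAAT and no CCGGAAG. A link between a motif and the direction of a gene was not tested. A match of letters is not a bound site.

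Gene counts totalled 18256773 to 21509229 per IMR90 library, 22479132 to 25236178 per Huh7 shTHBD library and 19328182 to 20020683 per Huh7 control library. THBD itself was counted 719, 732 and 763 times in the libraries labelled shTHBD set 1 and 199, 220 and 209 times in set 2, against 315, 351 and 430 times in the IMR90 control. The libraries labelled set 1 thus stood 2.12-fold above control (log2 fold change 1.09 ± 0.0764, SE, adjusted p = 1.2e-20, edgeR quasi-likelihood test), against their label, and set 2 stood 1.76-fold below it (−0.81 ± 0.0905, adjusted p = 1.5e-12, edgeR). In Huh7, THBD was counted 0, 0 and 0 times in shTHBD libraries and 0, 0 and 6 times in control libraries, where the knockdown cannot be checked. All 7 fibroblast markers reached 10 CPM in every IMR90 group, with summed levels of 1799 to 1871 CPM in libraries labelled set 1, 9067 to 9155 CPM in set 2 and 3369 to 3379 CPM in control. Libraries labelled set 1 had 1 of the 7 above all control libraries and 6 below. In set 2, 4 were above (COL1A1, COL1A2, COL3A1 and LUM) and 3 below (THY1, PDGFRB and FAP); COL1A1 alone averaged 4397 CPM in set 2 and 1744 CPM in control, while THY1 averaged 206 CPM in set 2 and 376 CPM in control. All 7 hepatocyte markers reached 10 CPM in both Huh7 groups, summing to 3982 to 4038 CPM in shTHBD and 5617 to 5828 CPM in control. Of these, 6 were lower in shTHBD, and FGB, the most abundant, was higher, at 2606 ± 9.55 CPM in shTHBD and 2309 ± 89.4 CPM in control. None of 7 leukocyte markers reached 10 CPM in any group. Some fibroblast markers were found in Huh7 too, the 7 summing to 1000 to 1063 CPM in shTHBD and 697.1 to 724.6 CPM in control. Only 3 of the 7 (COL1A1, COL1A2 and LUM) averaged at least 10 CPM in the Huh7 groups, and 2 (THY1 and FAP) averaged under 1 CPM. The hepatocyte marker SERPINA1 averaged 134.3 CPM in libraries labelled set 1, 8.80 CPM in set 2 and 16.3 CPM in the IMR90 control. The other 6 hepatocyte markers averaged under 1 CPM in every IMR90 group. Of 5 endothelial markers, only PECAM1 in Huh7 control reached 10 CPM (12.98 CPM). None of 4 epithelial markers did so in IMR90, and 3 of the 4 did so in both Huh7 groups. Of these 3, CDH1 averaged 337.3 CPM in Huh7 shTHBD and 682.8 CPM in Huh7 control, while EPCAM and KRT19 overlapped between the groups. The part of these marker differences in the results below was not tested.

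NEDD8, the modifier, was lower in IMR90 set 2 and in Huh7 shTHBD cells and close to control in libraries labelled set 1. The gene is at chromosome 14, 24216857 to 24232367, minus strand (GRCh38, as are all gene positions below). Levels are given as CPM, counts scaled to a common total of gene counts, while fold changes also carry the TMM scaling of edgeR between libraries. NEDD8 stood at 31.8, 32.8 and 32.3 CPM in libraries labelled set 1 and at 7.74, 6.90 and 10.2 CPM in set 2, against 36.5, 37.4 and 34.5 CPM in the IMR90 control. Every set 2 library lay far below every control library, and the libraries labelled set 1 lay just under the lowest control library. The log2 fold change was −2.21 ± 0.0893 in set 2, or 4.63-fold lower, and −0.10 ± 0.0725 in libraries labelled set 1. In Huh7, NEDD8 stood at 3.40, 2.42 and 2.31 CPM in shTHBD cells and at 16.0, 22.03 and 20.8 CPM in control cells. These groups were far apart, at 7.36-fold lower in shTHBD (log2 fold change −2.88 ± 0.169), and rested on 82, 61 and 52 counts against 314, 441 and 403. In bulk RNA, fewer cells that express a gene and less of its RNA per cell cannot be told apart.

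**Figure D1:**
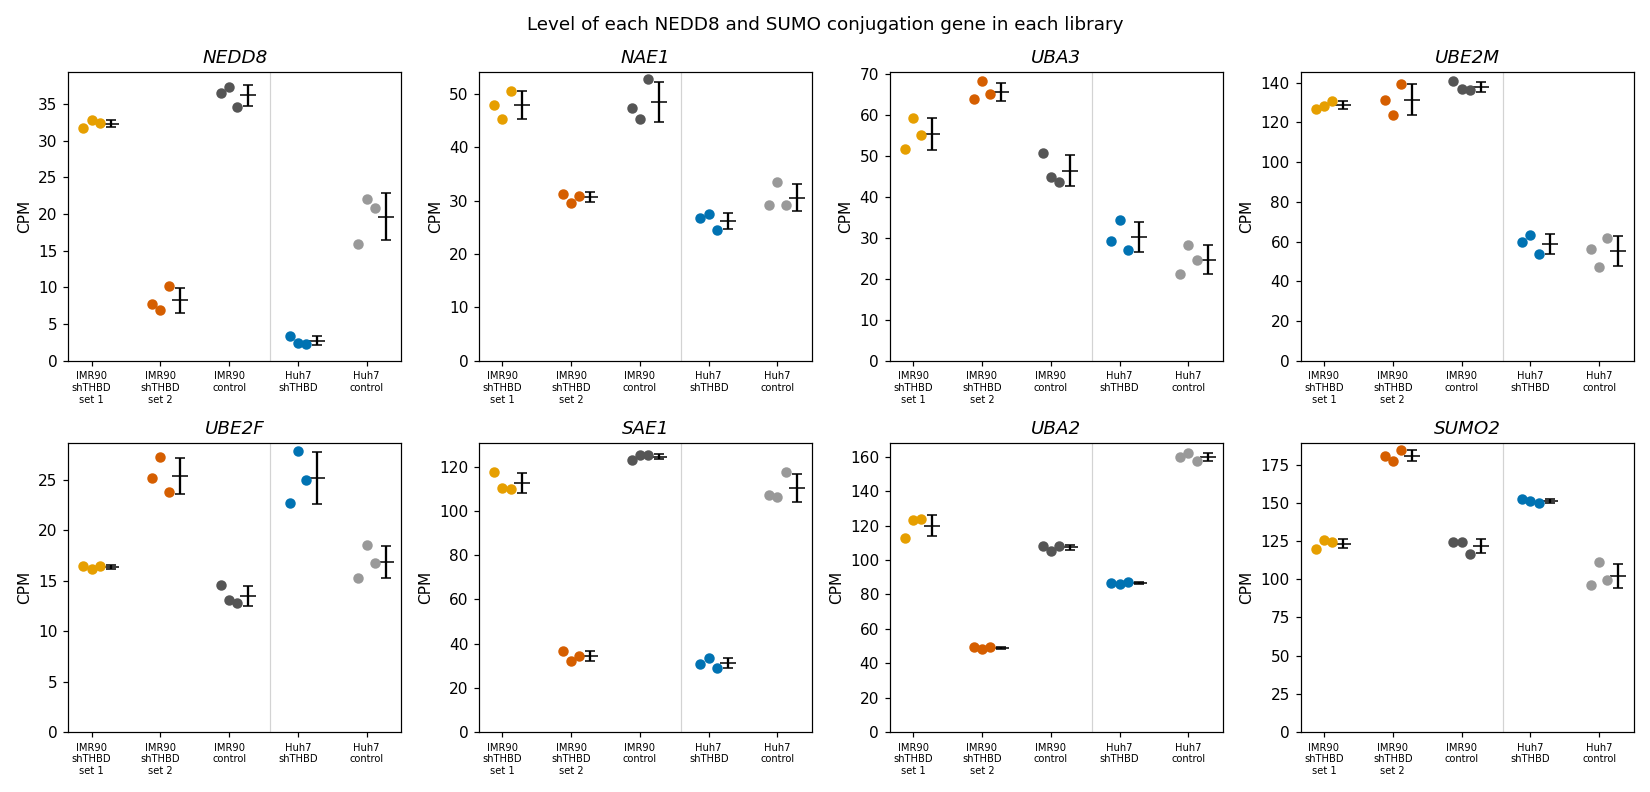
Level of each of the 8 genes in CPM (counts scaled to a common library total, linear axes from 0) in each library of the 5 groups; points are libraries, the dash and bar beside them the mean and SD of 3. NEDD8, SAE1 and UBA2 sit low in set 2 and in Huh7 shTHBD, UBE2F and SUMO2 sit high in both, and UBE2M is nearly level within each line.

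NAE1 and UBA3, the regulatory and the catalytic subunit of the NEDD8 E1 enzyme, went opposite ways in set 2. NAE1 (chromosome 16, 66802875 to 66873256, minus strand) stood at 47.9, 45.4 and 50.6 CPM in libraries labelled set 1 and at 31.3, 29.6 and 30.9 CPM in set 2, against 47.4, 45.4 and 52.7 CPM in the IMR90 control. The libraries labelled set 1 overlapped control, while all of set 2 lay below it (log2 fold change 0.04 ± 0.0581 and −0.75 ± 0.0619). The first of these had no stable sign and was −0.01 without replicate 3 of that set or without control replicate 2. In Huh7, NAE1 stood at 26.7, 27.5 and 24.4 CPM in shTHBD cells and at 29.1, 33.5 and 29.1 CPM in control cells, a small gap with no overlap (−0.25 ± 0.0946).

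UBA3 (chromosome 3, 69054730 to 69080408, minus strand) stood at 51.5, 59.3 and 55.03 CPM in libraries labelled set 1 and at 63.8, 68.1 and 65.0 CPM in set 2, against 50.8, 44.7 and 43.7 CPM in the IMR90 control. Both sets lay above control, set 1 by a narrow gap (log2 fold change 0.31 ± 0.0555) and set 2 by a wider one (0.42 ± 0.0546). In Huh7 it stood at 29.3, 34.2 and 27.1 CPM in shTHBD cells and at 21.1, 28.2 and 24.6 CPM in control cells, and these groups overlapped (0.27 ± 0.105).

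The E2 enzymes differed from each other. UBE2M, which serves most cullins together with the RING protein RBX1, was nearly level in all comparisons. It lies on chromosome 19 from 58555712 to 58558954, minus strand, and stood at 127, 128 and 131 CPM in libraries labelled set 1 and at 131, 124 and 139 CPM in set 2, against 141, 137 and 136 CPM in the IMR90 control. The log2 fold change was −0.04 ± 0.0364 in libraries labelled set 1 and −0.15 ± 0.0364 in set 2. On CPM, set 2 overlapped control and the libraries labelled set 1 did not. Divided by the TMM factors, which the fold changes carry, both turned: the levels were 132.6 to 137.1 in libraries labelled set 1, which overlapped, and 118 to 132.4 in set 2, which did not, against 137.0 to 141.7 in control. In Huh7, UBE2M stood at 59.7, 63.2 and 53.5 CPM in shTHBD cells and at 56.5, 47.0 and 61.8 CPM in control cells, which overlapped (0.06 ± 0.0853). The direction of this last value rested on 1 library: without control replicate 2 it was −0.05, and over all other processing choices it lay between 0.02 and 0.14.

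UBE2F, the E2 enzyme that works with RNF7 on CUL5, was higher in libraries labelled set 1, in set 2 and in Huh7 shTHBD cells than in their controls. It lies on chromosome 2 from 237966827 to 238042782, plus strand, and stood at 16.5, 16.1 and 16.4 CPM in libraries labelled set 1 and at 25.1, 27.2 and 23.7 CPM in set 2, against 14.6, 13.1 and 12.7 CPM in the IMR90 control. The sets did not overlap control or each other (log2 fold change 0.33 ± 0.0908 and 0.83 ± 0.0864). In Huh7 it stood at 22.7, 27.9 and 25.0 CPM in shTHBD cells and at 15.3, 18.5 and 16.7 CPM in control cells, again with no overlap (0.55 ± 0.110). Rows named as UBE2F pseudogenes held 4.33% to 8.93% of the UBE2F count in libraries labelled set 1 and 1.34% to 2.98% in set 2, against 4.66% to 10.2% in the IMR90 control. They held 5.97% to 10.8% of the UBE2F count in Huh7 shTHBD libraries and 10.2% to 27.6% in Huh7 control libraries, and counts of near-identical copies may be shared between such rows. Their part in the UBE2F difference was not tested.

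SAE1 and UBA2, the 2 subunits of the SUMO E1 enzyme, were lower together in set 2 and in Huh7 shTHBD cells. SAE1, the smaller subunit, lies on chromosome 19 from 47113274 to 47210636, plus strand. It stood at 118, 110.3 and 109.7 CPM in libraries labelled set 1 and at 36.4, 31.9 and 34.4 CPM in set 2, against 123, 125.5 and 125.0 CPM in the IMR90 control. Set 2 lay 3.85-fold below control (log2 fold change −1.95 ± 0.0463), and the libraries labelled set 1 lay slightly below it (−0.09 ± 0.0395). Huh7 gave nearly the same size of difference, with 30.6, 33.5 and 29.1 CPM in shTHBD cells and 107, 106 and 117.5 CPM in control cells, 3.62-fold lower (−1.86 ± 0.0744).

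UBA2, the catalytic subunit, lies on the same chromosome from 34428352 to 34471251, plus strand. It stood at 113, 123 and 124 CPM in libraries labelled set 1 and at 49.2, 48.0 and 49.4 CPM in set 2, against 108, 105.5 and 108 CPM in the IMR90 control. All of set 2 lay below control (log2 fold change −1.22 ± 0.0440), while the libraries labelled set 1 lay above it (0.22 ± 0.0393). In Huh7, UBA2 stood at 86.5, 86.1 and 87.4 CPM in shTHBD cells and at 160.1, 162 and 158 CPM in control cells, 1.88-fold lower (−0.91 ± 0.0617).

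SUMO2, the modifier itself, was higher where its activating enzyme was lower. It lies on chromosome 17 from 75165586 to 75182959, minus strand, and stood at 119.8, 126 and 124 CPM in libraries labelled set 1 and at 180.5, 177.5 and 184.5 CPM in set 2, against 124, 124.5 and 116 CPM in the IMR90 control. The libraries labelled set 1 overlapped control (log2 fold change 0.07 ± 0.0357) and set 2 lay above both (0.49 ± 0.0346). In Huh7, SUMO2 stood at 153, 151 and 150.1 CPM in shTHBD cells and at 96.5, 111 and 99.2 CPM in control cells, with no overlap (0.54 ± 0.0637).

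Across the 8 genes, all passed the filter on low counts in each comparison. In the libraries labelled set 1, 6 of the 8 did not overlap control, 3 higher and 3 lower, where 59.4% of all 15411 genes tested did not overlap. In set 2, 7 did not overlap control, 3 higher and 4 lower, where 70.0% of all genes did not. In Huh7, 6 did not overlap control, 2 higher and 4 lower, where 58.8% of 17474 genes did not. Overlap here is read on CPM; on CPM divided by the TMM factor, a check added after the data were seen, the counts were 5 in libraries labelled set 1, 8 in set 2 and 6 in Huh7, where 59.5%, 69.6% and 59.0% of all genes did not overlap, and UBE2M alone turned. Nothing is read from these counts, since the same values chose the genes. Genes at least as low as a log2 fold change of −1 made up 4.996% of all genes in libraries labelled set 1, 10.1% in set 2 and 9.15% in Huh7. Of the 8 genes, NEDD8, SAE1 and UBA2 were that low in set 2, and NEDD8 and SAE1 in Huh7. Set 1 and set 2 share their control libraries, so their values against control are not independent.

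**Figure D2:**
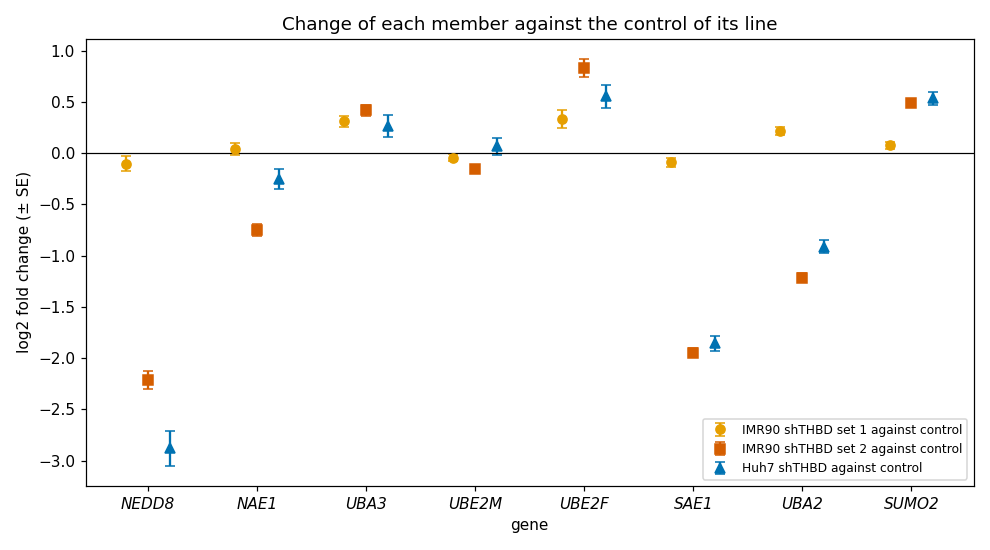
Log2 fold change ± SE of each of the 8 genes against the control of its line (linear axis in log2 units) for the libraries labelled shTHBD set 1, for set 2 and for Huh7 shTHBD. NEDD8 (−2.21 and −2.88) and SAE1 (−1.95 and −1.86) lie lowest in set 2 and Huh7, and the libraries labelled set 1 lie between −0.10 and 0.33 for every gene.

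Between the sets themselves, the libraries labelled set 1 stood above set 2 for NEDD8 (log2 difference 2.11 ± 0.0904), SAE1 (1.85 ± 0.0468), UBA2 (1.43 ± 0.0436) and NAE1 (0.79 ± 0.0620). They stood below set 2 for UBE2F (−0.50 ± 0.0841), SUMO2 (−0.41 ± 0.0346) and UBA3 (−0.11 ± 0.0535). For these 7 genes the sets did not overlap, where 72.3% of all genes did not; UBE2M overlapped (0.11 ± 0.0367). On CPM divided by the TMM factor UBA3 overlapped between the sets and UBE2M did not.

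Levels of different genes can be set side by side only per length, as TPM (a level per length, from the counts and the exon length in the count table). That length joins all annotated exons of a gene, and a transcript may hold fewer of them. The orders below, and the sizes of the ratios after them, therefore depend on the annotation too. How far they do was not tested. In the libraries labelled set 1 the order was UBE2M at 256 ± 2.38 TPM, SUMO2 at 128 ± 2.35, SAE1 at 104 ± 4.90, UBA2 at 86.3 ± 3.79, UBA3 at 46.7 ± 3.05, NAE1 at 34.7 ± 1.84, NEDD8 at 29.6 ± 0.354 and UBE2F at 13.4 ± 0.211 TPM (SD, n = 3), with no overlap between neighbours. In set 2, UBE2M (259.8 ± 14.6 TPM) and SUMO2 (186 ± 3.23 TPM) still led, UBA3 (55.1 ± 1.86 TPM) came before UBA2 (35.0 ± 0.516 TPM) and SAE1 (31.5 ± 2.12 TPM), NAE1 and UBE2F overlapped (22.02 ± 0.673 and 20.6 ± 1.46 TPM), and NEDD8 came last at 7.52 ± 1.53 TPM. The IMR90 control kept the order of the libraries labelled set 1, except that UBA3, NAE1 and NEDD8 (40.3 ± 3.23, 36.2 ± 2.87 and 34.1 ± 1.33 TPM) overlapped their neighbours; UBE2M led at 282.5 ± 4.50 TPM and UBE2F came last at 11.4 ± 0.809 TPM. These orders depend in part on exon bases shared with other genes. With unshared bases alone as the length, a check added after the data were seen, NEDD8 at 33.95 ± 0.407 TPM overlapped NAE1 in libraries labelled set 1. In set 2 UBE2F at 24.6 ± 1.75 TPM then stood above NAE1 with no overlap, and in the IMR90 control NEDD8 at 39.1 ± 1.52 TPM stood above NAE1 and overlapped it.

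The order differed between the Huh7 groups as well. In Huh7 shTHBD cells SUMO2 led at 158 ± 3.98 TPM, then UBE2M at 118 ± 11.8 and UBA2 at 62.9 ± 0.681 TPM. SAE1, UBA3, UBE2F and NAE1 followed at 29.1 ± 2.52, 25.7 ± 3.48, 20.8 ± 2.22 and 19.1 ± 1.48 TPM, each overlapping the next, and NEDD8 came last at 2.51 ± 0.581 TPM. In Huh7 control cells UBA2, UBE2M, SUMO2 and SAE1 lay together at 115 ± 1.59, 109.9 ± 15.1, 106 ± 8.496 and 102 ± 6.32 TPM, each overlapping the next. A lower cluster of NAE1, UBA3, NEDD8 and UBE2F, again overlapping in turn, lay at 22.2 ± 1.87, 20.9 ± 3.08, 18.0 ± 3.06 and 13.8 ± 1.38 TPM. On unshared bases UBE2F no longer overlapped NAE1 in Huh7 shTHBD cells (24.8 ± 2.65 TPM), and the order in both Huh7 groups was the same.

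Ratios of the subunits put these shifts within a library. The 2 subunits of the NEDD8 E1 enzyme are used as a pair, and the TPM ratio of NAE1 over UBA3 was 0.747 ± 0.0788 in libraries labelled set 1 and 0.401 ± 0.0253 in set 2, against 0.902 ± 0.121 in the IMR90 control (SD, n = 3). It was 0.747 ± 0.0516 in Huh7 shTHBD cells and 1.07 ± 0.0951 in Huh7 control cells. For the SUMO E1 enzyme, SAE1 over UBA2 was 1.21 ± 0.113 in libraries labelled set 1 and 0.901 ± 0.0493 in set 2, against 1.49 ± 0.0331 in the IMR90 control. In Huh7 it was 0.462 ± 0.0364 in shTHBD cells and 0.888 ± 0.0620 in control cells. SAE1 was thus further below control than UBA2 in set 2 and in Huh7. UBE2M over UBE2F was 19.1 ± 0.360 in libraries labelled set 1 and 12.7 ± 1.60 in set 2, against 24.9 ± 1.34 in the IMR90 control, and 5.70 ± 0.605 in Huh7 shTHBD cells and 8.05 ± 1.62 in Huh7 control cells. Of these comparisons with control, UBE2M over UBE2F in Huh7 overlapped between groups and the others did not, NAE1 over UBA3 in libraries labelled set 1 by a gap of 0.797 to 0.801.

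**Figure D3:**
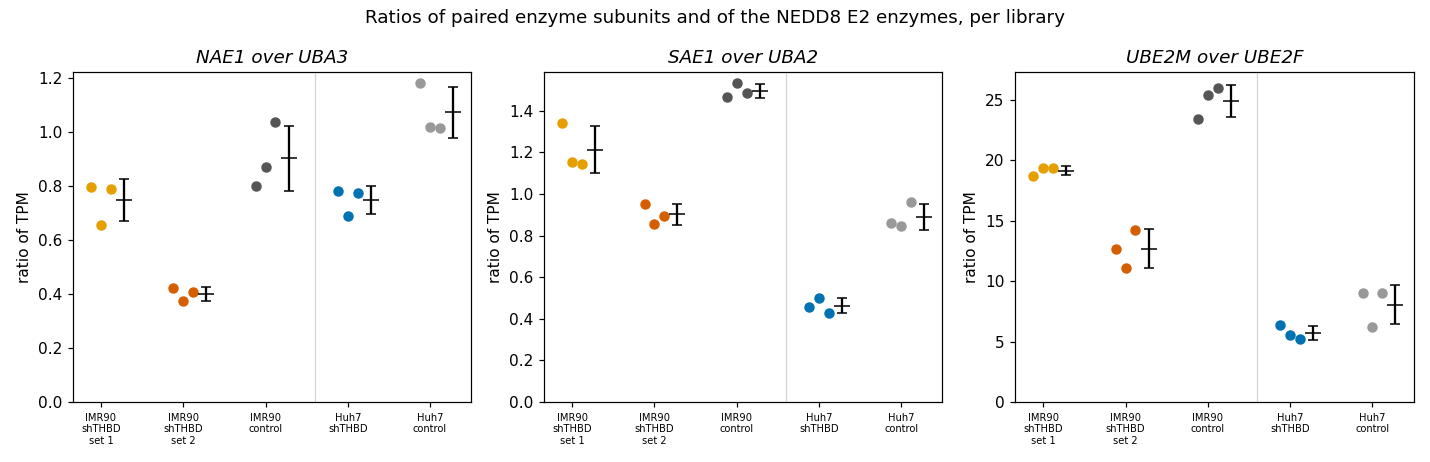
TPM ratio (no unit, linear axes from 0) of the NEDD8 E1 subunits, the SUMO E1 subunits and the NEDD8 E2 enzymes in each library of the 5 groups; points are libraries, the dash and bar the mean and SD of 3. NAE1 over UBA3 is lowest in set 2 (0.401 ± 0.0253) and SAE1 over UBA2 is lowest in Huh7 shTHBD (0.462 ± 0.0364).

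Some exons of these genes are shared with others, and the counting command for IMR90 names no option for strand. NEDD8 shares 488 of its 3787 exon bases (12.9%) with the readthrough gene NEDD8-MDP1, which had 0 or 1 count in every library. UBE2F shares 688 of 4238 bases (16.2%) with UBE2F-SCLY, which had 0 to 7 counts. UBA3 shares 143 bases (3.48%) with a gene on the opposite strand and SUMO2 shares 48 bases with JPT1. NAE1, UBE2M, SAE1 and UBA2 share none. Adding the readthrough counts to NEDD8 and UBE2F left every direction as it was, which counts this small could hardly have changed. This check therefore does not show what the shared bases contribute.

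Among 7055 genes averaging 10 CPM or more in each group, those closest to NEDD8 over the 15 libraries were TXNRD1, MDH2 and SLC16A3. Closeness is the root-mean-square difference in log2 CPM after centring within each line, and it was 0.246, 0.250 and 0.260. NEDD8 itself averaged under 10 CPM in set 2 (8.27 CPM) and in Huh7 shTHBD (2.71 CPM). Other genes that low in any group were not searched. Mean log2 CPM of TXNRD1, a thioredoxin reductase, differed from control by 0.37 in libraries labelled set 1, −1.93 in set 2 and −2.64 in Huh7. MDH2, the mitochondrial malate dehydrogenase, differed by −0.25, −2.52 and −2.46, and SLC16A3, a lactate transporter, by −0.27, −2.47 and −2.39, in the same order. Those closest to SUMO2, among 7054 genes, were NUDT4, SDCBP and CDC16, at 0.0497, 0.0531 and 0.0551. CDC16, a subunit of the anaphase-promoting complex, differed from control by −0.03 in libraries labelled set 1, 0.48 in set 2 and 0.49 in Huh7.

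The partners of NEDD8 (RING subunits, co-ligases, cullins, COP9 signalosome, proteases and exchange factors) were 30 genes, all tested. Against control they were more often higher than lower, as were the genes of the other lists below. The counts were close in places, with 15 higher and 12 lower for ubiquitin and other ubiquitin-like systems in set 2. No list was tested as a set. Calls are genes with an adjusted p under 0.05 by edgeR's quasi-likelihood test over all genes. In the libraries labelled set 1, 15 were higher and 8 lower, where 53.8% of all genes were called, 27.3% higher and 26.5% lower. Set 2 had 16 higher and 8 lower, where 67.3% of all genes were called, 33.2% higher and 34.1% lower. Huh7 had 12 higher and 6 lower, where 53.1% were called, 25.9% higher and 27.3% lower. The median log2 fold changes were 0.16, 0.23 and 0.14 in that order, and those of all genes tested −0.00, 0.01 and 0.00. Taken without sign, the medians were 0.26, 0.31 and 0.28, below those of all genes tested at 0.29, 0.45 and 0.41. The libraries labelled set 1 had 10 higher and 16 lower than set 2, where 69.5% of all genes were called, 33.9% higher and 35.6% lower.

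RBX1, the RING subunit that works with UBE2M, was at 36.7 ± 1.17 CPM in libraries labelled set 1 and rose to 50.5 ± 2.74 CPM in set 2, against 38.3 ± 2.65 CPM in control (log2 fold change in set 2 0.32 ± 0.0593, edgeR adjusted p = 3.2e-06). It fell in Huh7, at 25.1 ± 4.02 CPM in shTHBD cells and 31.1 ± 0.854 CPM in control cells (−0.34 ± 0.101, edgeR adjusted p = 0.0052). RNF7, the RING subunit that works with UBE2F, fell in libraries labelled set 1 (−0.30 ± 0.0453), rose in set 2 (0.25 ± 0.0431) and fell in Huh7 (−0.28 ± 0.0880). CUL1, the scaffold of the SCF ligases, rose in libraries labelled set 1 (0.32 ± 0.0423) and in set 2 (0.21 ± 0.0424), and its value in Huh7 was 0.11 ± 0.0717 (edgeR adjusted p = 0.21).

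COPS5, the subunit of the COP9 signalosome that cleaves NEDD8 from cullins, rose in set 2, at 36.9 ± 1.25 CPM in libraries labelled set 1 and 65.2 ± 1.25 CPM in set 2, against 41.4 ± 2.81 CPM in control. Its log2 fold change was −0.11 ± 0.0583 in libraries labelled set 1 (edgeR adjusted p = 0.11), 0.58 ± 0.0547 in set 2 (3.7e-15) and −0.02 ± 0.0774 in Huh7 (0.88). COPS2 rose in all 3 comparisons (0.36 ± 0.0399, 0.79 ± 0.0386 and 0.58 ± 0.0684), and so did COPS8 (0.16 ± 0.0445, 0.77 ± 0.0424 and 0.28 ± 0.0829). COPS6 fell in all 3 (−0.26 ± 0.0347, −0.20 ± 0.0344 and −0.64 ± 0.0899). COPS7B rose in libraries labelled set 1 (0.41 ± 0.0531) and fell in set 2 (−0.20 ± 0.0555) and Huh7 (−0.72 ± 0.0901). COPS4 fell in set 2 (−0.39 ± 0.0665) and Huh7 (−0.50 ± 0.137). Its small rise in libraries labelled set 1 (0.16 ± 0.0639, edgeR adjusted p = 0.028) lost the call without replicate 2 or 3 of that set or replicate 1 or 3 of control, with adjusted p between 0.0587 and 0.114.

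The other NEDD8 partners named were cullins, co-ligases, NUB1 and SENP8. CUL7, an atypical cullin, fell in libraries labelled set 1, at 37.4 ± 1.71 CPM there and 81.6 ± 2.99 CPM in set 2, against 81.4 ± 1.74 CPM in control (log2 fold change −1.07 ± 0.0495, edgeR adjusted p = 2.8e-30). NUB1, which steers NEDD8 to degradation, fell there as well (−0.46 ± 0.0626), and DCUN1D1, a co-ligase that promotes cullin neddylation, rose (0.46 ± 0.0595). In Huh7, DCUN1D2, another co-ligase (0.78 ± 0.0978), and CUL2, the scaffold of the VHL ligase (0.59 ± 0.0744), had the largest rises under the naming rule. CUL2 also rose in libraries labelled set 1 (0.35 ± 0.0485) and set 2 (0.52 ± 0.0476). DCUN1D2 also rose in set 2 (0.26), and CUL7 (0.33) and NUB1 (0.21) rose in Huh7. Of these, the calls of DCUN1D2 and NUB1 were lost under some alternatives. CUL9 fell in libraries labelled set 1 (−0.38 ± 0.0788) and in set 2 (−0.65 ± 0.0803). SENP8, the protease that processes the NEDD8 precursor, was at 1.51 ± 0.119 CPM in libraries labelled set 1 and 2.93 ± 0.619 CPM in set 2, against 1.87 ± 0.371 CPM in control. Its call in set 2 (0.55 ± 0.247, edgeR adjusted p = 0.043) was lost without replicate 2 or 3 of set 2 or replicate 1 or 2 of control, with adjusted p between 0.0668 and 0.245.

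**Figure D4:**
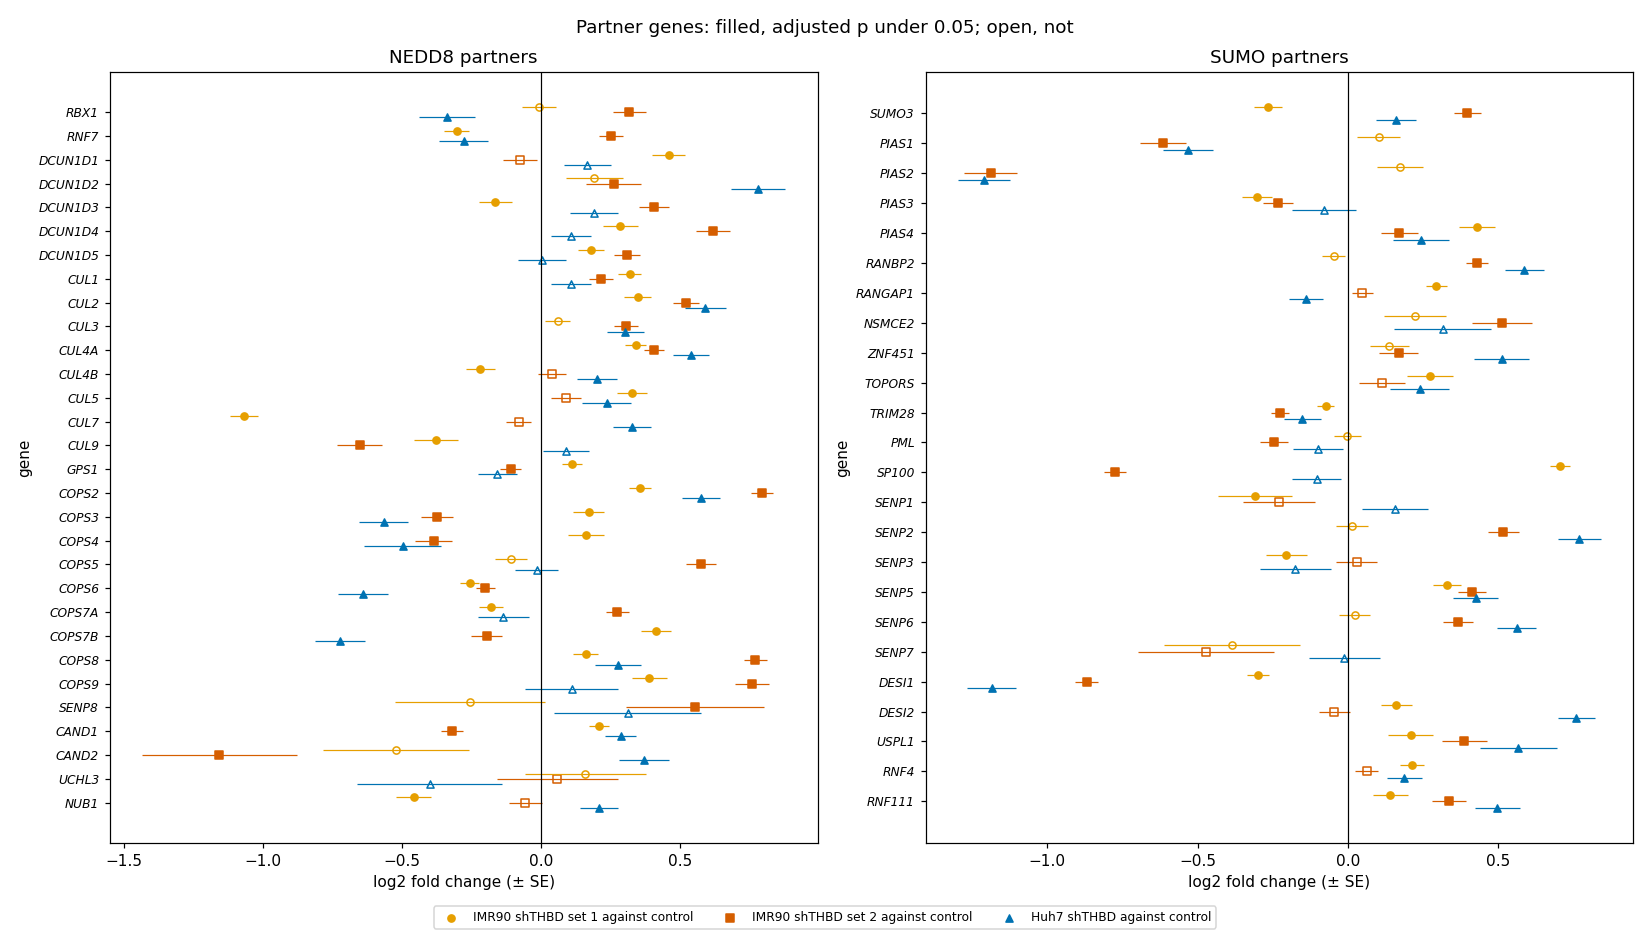
Log2 fold change ± SE (linear axes in log2 units) of 30 partners of NEDD8 and 24 partners of SUMO in the libraries labelled shTHBD set 1, in set 2 and in Huh7 shTHBD, each against the control of its line; filled symbols have an edgeR adjusted p under 0.05. CUL7 stands apart in libraries labelled set 1 (−1.07), and PIAS2 and DESI1 lie far to the left in set 2 and Huh7.

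The partners of SUMO (the paralog SUMO3, ligases, proteases and SUMO-targeted ubiquitin ligases; 24 of 25 tested, SUMO4 not passing the filter on low counts) gave 9 higher and 6 lower in libraries labelled set 1, 10 higher and 7 lower in set 2, and 12 higher and 5 lower in Huh7, where 53.8%, 67.3% and 53.1% of all genes were called. Their median log2 fold changes were 0.12, 0.05 and 0.17. The 17 partners called in Huh7 became 13 to 15 on leaving out 1 library, and 12 with a replicate block. The libraries labelled set 1 had 10 higher and 8 lower than set 2, where 69.5% of all genes were called.

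SUMO3, which is nearly identical to SUMO2 as a mature protein, fell in libraries labelled set 1 (log2 fold change −0.27 ± 0.0466) and rose in set 2 (0.40 ± 0.0440). In Huh7 its value was 0.16 ± 0.0660 (edgeR adjusted p = 0.040), and the call was lost without shTHBD replicate 1 or 2 or any control library, with adjusted p between 0.0545 and 0.173. SUMO2 over SUMO3, as a TPM ratio, was 1.51 ± 0.0638 in libraries labelled set 1 and 1.28 ± 0.109 in set 2, against 1.19 ± 0.0335 in the IMR90 control, and 1.39 ± 0.0638 in Huh7 shTHBD cells and 1.07 ± 0.0843 in Huh7 control cells.

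Among SUMO ligases, PIAS2 fell in set 2 (log2 fold change −1.19 ± 0.0873, edgeR adjusted p = 3.4e-20) and in Huh7 (−1.21 ± 0.0871, edgeR adjusted p = 1.3e-13), and its value in libraries labelled set 1 was 0.17 ± 0.0771 (edgeR adjusted p = 0.052). PIAS3 fell in libraries labelled set 1 (−0.30 ± 0.0506) and in set 2 (−0.23 ± 0.04998). NSMCE2, the SUMO ligase of the SMC5/6 complex, was at 12.1 ± 0.824 CPM in libraries labelled set 1 and rose to 16.2 ± 0.704 CPM in set 2, against 10.7 ± 0.914 CPM in control (0.51 ± 0.100, edgeR adjusted p = 6.8e-06). Its values in libraries labelled set 1 (0.22 ± 0.104, edgeR adjusted p = 0.062) and in Huh7 (0.31 ± 0.161, edgeR adjusted p = 0.10) did not pass the test, though 1 left-out library, replicate 2 of set 1 or replicate 3 of control for the first and shTHBD replicate 2 for the second, brought them past it (edgeR adjusted p between 0.0379 and 0.0445). PIAS4 rose in libraries labelled set 1 (0.43 ± 0.0610). It also rose in set 2 (0.17) and in Huh7 (0.24), calls lost under some alternatives. SP100, a nuclear-body protein that carries SUMO, rose in libraries labelled set 1 (0.70 ± 0.0336) and fell in set 2 (−0.77 ± 0.0369).

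Proteases that remove SUMO were not uniform. DESI1 fell in all 3 comparisons, at 107 ± 2.52 CPM in libraries labelled set 1 and 79.6 ± 2.36 CPM in set 2, against 137 ± 3.21 CPM in control, and at 29.2 ± 2.33 CPM in Huh7 shTHBD cells and 65.2 ± 1.64 CPM in Huh7 control cells. Its log2 fold changes were −0.30 ± 0.0372, −0.87 ± 0.0387 and −1.19 ± 0.0812. DESI2, a paralog of DESI1, rose in Huh7, at 177 ± 1.70 CPM in shTHBD cells and 102 ± 4.46 CPM in control cells (0.76 ± 0.0610, edgeR adjusted p = 1.8e-12), and its value in set 2 was −0.04 ± 0.0511 (edgeR adjusted p = 0.45). Its small rise in libraries labelled set 1 (0.16 ± 0.0506, edgeR adjusted p = 0.0053) lost the call without control replicate 1 (edgeR adjusted p = 0.0781). SENP2, a nuclear SUMO protease, rose in set 2 (0.52 ± 0.0518) and in Huh7 (0.77 ± 0.0728), and its value in libraries labelled set 1 was 0.01 ± 0.0543 (edgeR adjusted p = 0.85).

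The ubiquitin and other ubiquitin-like systems (30 genes, all tested) gave 18 higher and 8 lower in libraries labelled set 1, 15 higher and 12 lower in set 2, 12 higher and 8 lower in Huh7, and 11 higher and 14 lower between the libraries labelled set 1 and set 2, beside 53.8%, 67.3%, 53.1% and 69.5% of all genes called. Their medians were 0.16, 0.11, 0.09 and −0.06. UBA1, the main ubiquitin E1 enzyme, fell slightly in libraries labelled set 1 (log2 fold change −0.09 ± 0.0226) and set 2 (−0.21 ± 0.0226) and was 0.07 ± 0.0516 in Huh7 (edgeR adjusted p = 0.25). UBA7, the E1 enzyme of ISG15, fell in all 3: it was at 4.75 ± 0.522 CPM in libraries labelled set 1 and 3.19 ± 0.406 CPM in set 2, against 10.4 ± 0.663 CPM in control, and at 11.96 ± 1.13 CPM in Huh7 shTHBD cells and 52.04 ± 4.13 CPM in Huh7 control cells. Its log2 fold changes were −1.07 ± 0.137, −1.79 ± 0.147 and −2.15 ± 0.101. UBE2G1 and UBE2D1, ubiquitin E2 enzymes, rose in all 3 comparisons, by 0.43 to 0.77 and by 0.51 to 0.61. UBE2N, an E2 enzyme for ubiquitin chains that signal without degradation, rose in libraries labelled set 1 (0.52 ± 0.0420) and fell in set 2 (−0.31 ± 0.0445) and Huh7 (−0.58 ± 0.0745).

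Adaptors and substrate receptors of cullins (30 genes, all tested) gave 16 higher and 6 lower in libraries labelled set 1, 18 higher and 6 lower in set 2, 15 higher and 8 lower in Huh7, and 9 higher and 17 lower between the libraries labelled set 1 and set 2, against the same shares of all genes called. Their medians were 0.16, 0.23, 0.25 and −0.16. SKP2, the receptor that marks the cell-cycle inhibitor CDKN1B, rose in set 2, at 16.2 ± 0.839 CPM in libraries labelled set 1 and 43.3 ± 2.01 CPM in set 2, against 8.60 ± 0.889 CPM in control (log2 fold change in set 2 2.25 ± 0.0855, edgeR adjusted p = 7.0e-36). It rose in libraries labelled set 1 as well (0.97 ± 0.0959) and fell in Huh7 (−0.26 ± 0.0556). SOCS3, a receptor for cytokine signalling proteins, rose in libraries labelled set 1 (1.24 ± 0.0354) and fell in set 2 (−0.49 ± 0.0396) and Huh7 (−0.63 ± 0.124). DTL, the receptor that marks replication factors, fell in Huh7, at 3.35 ± 0.604 CPM in shTHBD cells and 18.9 ± 0.679 CPM in control cells (−2.52 ± 0.154, edgeR adjusted p = 1.9e-15). SOCS2 rose in Huh7 (1.497 ± 0.0972). It also rose in set 2 (1.23) and in libraries labelled set 1 (0.53), at under 10 CPM in every IMR90 library. Its call in libraries labelled set 1 was lost under some alternatives. RHOBTB1, a CUL3 adaptor, fell in libraries labelled set 1 (−0.52 ± 0.118) and rose in set 2 (0.65 ± 0.105) and Huh7 (0.57 ± 0.0798). DCAF1, a receptor of the CUL4 ligases, fell in set 2 (−0.62 ± 0.0716). It fell in Huh7 too (−0.28), a call lost under some alternatives.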

How the data were processed

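The authors deposited raw counts per gene and library, which were analysed unaltered. The submitters' processing notes name fastp, STAR and featureCounts and the build GRCh38. Per the file headers, the IMR90 counts come from featureCounts 2.0.1 with GENCODE 38; for Huh7 neither version nor annotation is given in the sources used here. Gene and exon lengths came from the same deposited tables. The description of replicate 3 of set 2 names Huh7, against its labels of line, tissue and treatment, and this library stayed with IMR90.

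IMR90 and Huh7 had separate quasi-likelihood fits in edgeR 4.0.16 under R 4.3.3. Low genes were dropped by filterByExpr, leaving 15411 in IMR90 and 17474 in Huh7, and libraries were scaled by TMM. Benjamini-Hochberg adjustment ran over all of these genes, and an adjusted p under 0.05 is a call. The common coefficient of variation between replicates was 3.13% for IMR90 and 8.20% for Huh7. The SE of a log2 fold change is its size over the square root of its F statistic, which is approximate. CPM and TPM were computed here from the counts. The fit was tested on simulated data.

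The 8 genes, the 4 lists of partner genes, the naming rule and the alternatives were chosen with earlier results of these data known. Some partner genes are not reported here and were left out of the lists and their counts after results were known. Partner genes named are 7 fixed ones and, per comparison with control, the 2 largest rises and falls of the NEDD8 and SUMO lists and the largest of each other list, among called genes with at least 10 CPM in a group and libraries that did not overlap. Alternatives were the size factors and the test of DESeq2 1.42.0, upper-quartile scaling, limma 3.58.1 voom, other filters, a replicate block, a fit on the compared groups only, added readthrough counts and leaving out each library. Chi-square over its degrees of freedom for pairs of replicates ran from 1.93 to 2.68 (IMR90) and from 3.60 to 12.4 (Huh7), so no pair agreed within sampling noise. Floors and counts cover counting error only. Promoter windows came from RefSeq.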

Additional observations from a re-analysis of the deposited data

Results flagged for a closer look

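The libraries labelled shTHBD set 1 and those of set 2 differed from each other, by edgeR's test of the difference itself, for 33 of 37 named genes tested, at adjusted p between 2.65e-51 and 0.0235, where 69.5% of all genes were called; most of the named genes were chosen for large changes. In these libraries THBD goes against the label of set 1, with a difference of 1.90 (log2, set 1 minus set 2, as all values that follow). Set 1 was above set 2 for SOCS3 (1.72), DTL (1.48), SP100 (1.48), PIAS2 (1.36), UBE2N (0.83), UBA7 (0.71), DCAF1 (0.69), COPS7B (0.61), DESI1 (0.57), COPS4 (0.55), DCUN1D1 (0.53), CUL9 (0.27), PIAS4 (0.26), DESI2 (0.21), UBA1 (0.12) and CUL1 (0.10). It was below set 2 for SKP2 (−1.28), RHOBTB1 (−1.17), CUL7 (−0.99), SENP8 (−0.81), SOCS2 (−0.69), COPS5 (−0.68), SUMO3 (−0.66), COPS8 (−0.61), RNF7 (−0.56), SENP2 (−0.50), COPS2 (−0.44), NUB1 (−0.40), UBE2G1 (−0.34), RBX1 (−0.32), NSMCE2 (−0.29) and CUL2 (−0.17). The difference of CUL1 lost the call without replicate 3 of set 1 or replicate 1 or 2 of set 2 (adjusted p between 0.0598 and 0.122), that of CUL2 without replicate 1 of set 1 (adjusted p 0.0775) and that of NSMCE2 without replicate 2 of set 1 (adjusted p 0.0543). Upper-quartile scaling ended the calls of CUL1, UBA1, CUL9 and DESI2 (adjusted p 0.938, 0.374, 0.0553 and 0.0554).

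In other cases every library of one comparison lay on one side of its control and every library of another on the opposite side; these differences of log2 fold changes were not tested, and the sides were the same on CPM divided by the TMM factor. UBA2 differed by 1.43 between set 1 and set 2 and by 1.13 between set 1 and Huh7. Set 1 minus Huh7 was 3.71 for DTL, which had 22 to 31 counts in libraries labelled set 1 and 3 to 19 in the IMR90 control; its log2 fold change there, 1.19, ranged from 0.75 to 1.52 over the alternatives, with edgeR's call lost without replicate 1 of set 1 or replicate 2 of control (adjusted p 0.0646 and 0.139). For other genes it was 1.87 for SOCS3, 1.23 for SKP2, 1.14 for COPS7B, 1.11 for UBE2N, 0.66 for COPS4, −0.16 for UBA1, −0.43 for SUMO3, −0.47 for CUL9, −0.66 for NUB1, −1.09 for RHOBTB1 and −1.39 for CUL7. Set 2 minus Huh7 was 2.51 for SKP2, 0.65 for RBX1, 0.53 for RNF7, −0.28 for UBA1 and −0.74 for CUL9.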

How the results depend on the processing

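All counts of called genes, over all genes and over the 4 lists, stayed within 1.5 times their value under every alternative run. Leaving out 1 library gave 7633 to 8429 called genes in the libraries labelled set 1, 9932 to 10502 in set 2, 10346 to 10856 between the sets and 8391 to 9189 in Huh7. Replicates of the same number did not deviate together (correlations −0.0255 to 0.0624 in IMR90 and −0.308 to −0.0838 in Huh7). Replicates of different number ran from −0.0427 to 0.0568 in IMR90 and from −0.204 to 0.253 in Huh7. With 3 libraries per group, these values do not settle whether the numbers pair the libraries. With a replicate block, 8237, 10317, 10675 and 8784 genes were called in the same order, and 12 SUMO partners in Huh7, against 17 without it. Of 121 calls among THBD and the named partner genes, 14 were lost on leaving out some library and 10 under some other alternative, 17 in all; 9 of 26 genes and comparisons not called gained a call, and no called direction turned. The 8 members moved by more than 1 SD of their replicates under 13 of their settings, mostly with upper-quartile scaling, which shifted the median of all genes between the sets to −0.13, against −0.03 with TMM. Their log2 fold changes kept their sign except for NAE1 in the libraries labelled set 1 and UBE2M in Huh7. Depth limits NEDD8 in Huh7 shTHBD, at 52 to 82 counts, and THBD in Huh7.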
